A study of Mus musculus with 6 samples.

Results

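The genes described here encode calcium-handling proteins of the plasma membrane: the pumps Atp2b1 and Atp2b4, the exchanger Slc8a1, the TRP channels Trpv2, Trpv4, Trpm2 and Trpm7, the mechanically gated channel Piezo1 and the ATP-gated channel P2rx4. They were picked by symbol, and all 9 were found among the 16775 genes of the table and passed the filter on low counts, which left 12619 genes for testing. RNA-seq libraries came from osteoclasts grown from wild-type mouse bone marrow macrophages, which were compared after treatment with verapamil (3 libraries, replicates 1 to 3) and without it (2 control libraries, replicates 1 and 3; control replicate 2 was not analysed here). Both groups received 30 ng/ml M-CSF and 50 ng/ml RANKL, the cytokines that turn marrow macrophages into osteoclasts, and the titles give day 5. The protocol describes medium changes up to a later day, and which day the RNA was taken on is not settled by the labels. The labels give no dose, timing or vehicle for verapamil, a blocker of L-type calcium channels, and no strain, sex or age of the mice. Nothing in them says whether replicates came from separate animals or cultures, so the p-values measure the spread between these libraries, which may be technical.

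Calcium enters an osteoclast through channels of the plasma membrane and is removed by pumps, which use ATP, and by exchangers, which use the sodium gradient. Oscillations of intracellular calcium during RANKL-driven differentiation activate the transcription factor NFATc1, and in mice both the plasma membrane pumps and TRPV4 have been linked to osteoclast differentiation. The TRP family (transient receptor potential) holds cation channels opened by lipids, heat, swelling or oxidative stress, most of which pass calcium.

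Of the 9 genes, 1 was higher with verapamil (Trpv2, a cation channel, 1.32-fold) and 1 was lower (Atp2b4, a calcium pump, 0.328-fold) by edgeR's quasi-likelihood test with Benjamini-Hochberg adjustment over all tested genes (adjusted p under 0.05). That share can be read against all tested genes, of which 25.4% passed, 9.99% as higher and 15.4% as lower. The other 7 did not pass. Atp2b1, Trpm7 and Piezo1 had higher values in every verapamil library than in either control, Trpm2 had lower ones (by a narrow margin for control replicate 1), and Slc8a1, Trpv4 and P2rx4 overlapped between the groups. So 6 of the 9 had groups that did not overlap, against 56.7% of all tested genes. The median log2 fold change was 0.02 over the 9 genes and -0.01 over all tested genes. In such bulk samples, fewer cells of a type and less RNA per cell cannot be told apart.

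The libraries held 20202340 to 21494523 estimated counts each, and the 2 controls differed from each other more than the verapamil libraries did. Between the controls, the median squared difference over genes was 31.0 times that of counting noise, and between pairs of verapamil libraries it was 2.04 to 4.20 times. Between verapamil and control libraries it was 49.9 to 63.6 times for control replicate 1 and 17.5 to 17.99 times for control replicate 3, which was thus nearer to the verapamil libraries than to the other control. All 12 osteoclast markers examined were detected, with a summed level of 3363 to 3512 CPM (counts scaled to library size after TMM) in verapamil libraries and 7112 to 7808 CPM in controls, 1 of them called higher and 9 lower. Marker levels of stromal cells and osteoblasts (12 of 13 tested lower, summed level 652 to 676 CPM with verapamil and 1641 to 1882 CPM in controls) and of macrophages (10 of 13 lower and 1 higher, 5947 to 6130 CPM with verapamil and 8909 to 9970 CPM in controls) were also below the controls. All 5 tested dendritic cell markers were lower (10.3 to 13.03 CPM with verapamil and 70.5 to 117 CPM in controls). Of 2 tested endothelial markers 1 was higher and 1 lower (27.7 to 33.2 CPM with verapamil and 5.21 to 9.05 CPM in controls), and of 2 tested neutrophil markers 1 was lower (2.56 to 3.10 CPM with verapamil and 3.37 to 7.42 CPM in controls). The 1 tested lymphoid marker was not called, and the summed level of the lymphoid markers, with 1 untested marker, was 0.155 to 0.344 CPM with verapamil and 0.598 to 0.674 CPM in controls. Summed levels include any marker of the list that was too low to be tested. No marker present in the table was at 0 in every library, and the part of such cells in the values below was not tested.

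Levels were ordered per length of the longest annotated transcript (CPM per kb), since longer transcripts yield more reads. P2rx4 was the most abundant of the 9, with 87.6 ± 0.548 CPM per kb in verapamil libraries and 86.5 ± 4.04 in controls (SD, n = 3 and n = 2, as in all values below). In verapamil libraries Atp2b1 followed with 48.2 ± 4.49, Trpv2 with 44.8 ± 2.73, Piezo1 with 27.7 ± 1.76 and Trpm7 with 17.1 ± 1.40 CPM per kb. Trpv4 had 7.58 ± 0.314 and Slc8a1 4.85 ± 0.634 CPM per kb there. Trpm2 and Atp2b4 came last, with 0.237 ± 0.0410 and 0.196 ± 0.0414 CPM per kb. Neighbours in that order whose libraries overlapped were Atp2b1 with Trpv2 and Trpm2 with Atp2b4. In controls the order was P2rx4, Trpv2 (33.9 ± 2.38), Atp2b1 (31.1 ± 12.2), Piezo1 (17.6 ± 6.09), Trpm7 (10.0 ± 4.80), Trpv4 (7.78 ± 0.590), Slc8a1 (4.93 ± 1.55), Atp2b4 (0.596 ± 0.295) and Trpm2 (0.447 ± 0.231). There the ranges of Trpv2 and Atp2b1, of Piezo1 and Trpm7, of Trpm7 and Trpv4, and of Atp2b4 and Trpm2 overlapped.

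**Figure D1:**
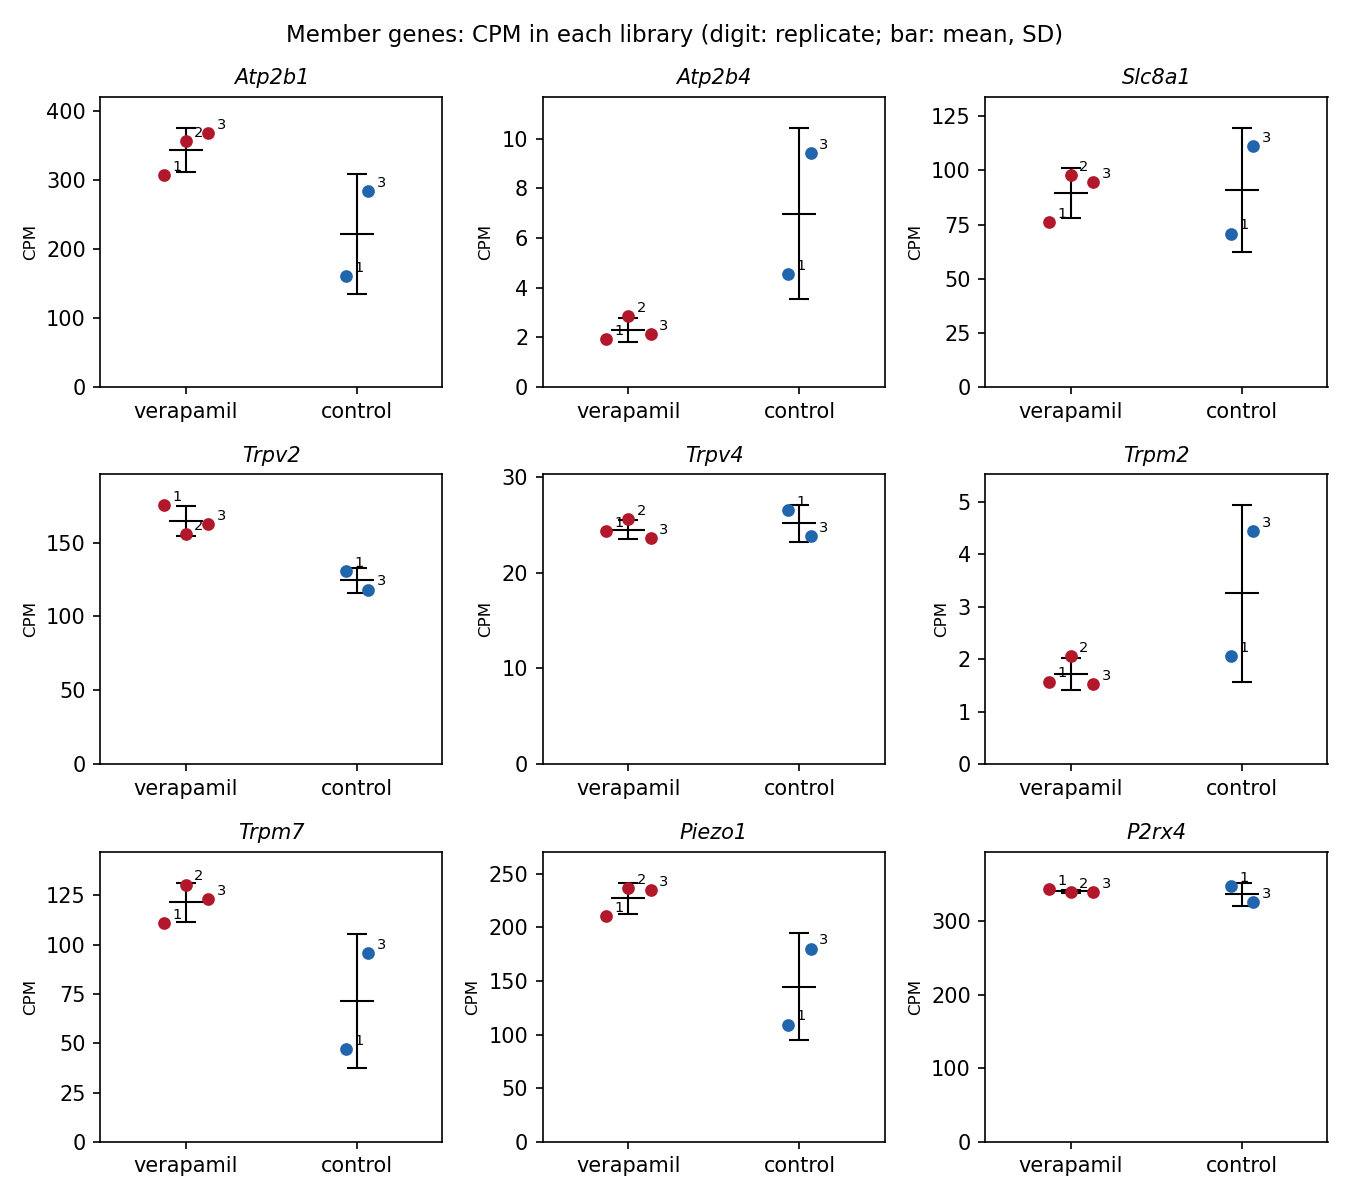
CPM of each of the 9 genes (y axes, from 0) in the 3 verapamil libraries and 2 control libraries. Points are libraries with their replicate number, bars are the mean and SD. In the 6 genes with long transcripts (Atp2b1, Atp2b4, Slc8a1, Trpm2, Trpm7 and Piezo1) control replicate 1 lies well below control replicate 3.

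Part of the spread of the controls followed transcript length. Tested genes were split into 5 equal classes by length. In the class with the longest transcripts (5302 bases and more), the median log2 ratio of control replicate 1 to control replicate 3 was -0.49, and in the shortest class (up to 2019 bases) it was 0.39. Of the 9 genes, 6 belong to the longest class, with longest transcripts of 7107 to 18464 bases. Their log2 ratios of control replicate 1 to control replicate 3 were -1.10 for Trpm2, -1.06 for Atp2b4, -1.02 for Trpm7, -0.82 for Atp2b1, -0.72 for Piezo1 and -0.65 for Slc8a1. The other 3, Trpv2, Trpv4 and P2rx4, have transcripts of 3228 to 3895 bases and ratios of 0.10 to 0.15.

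**Figure D2:**
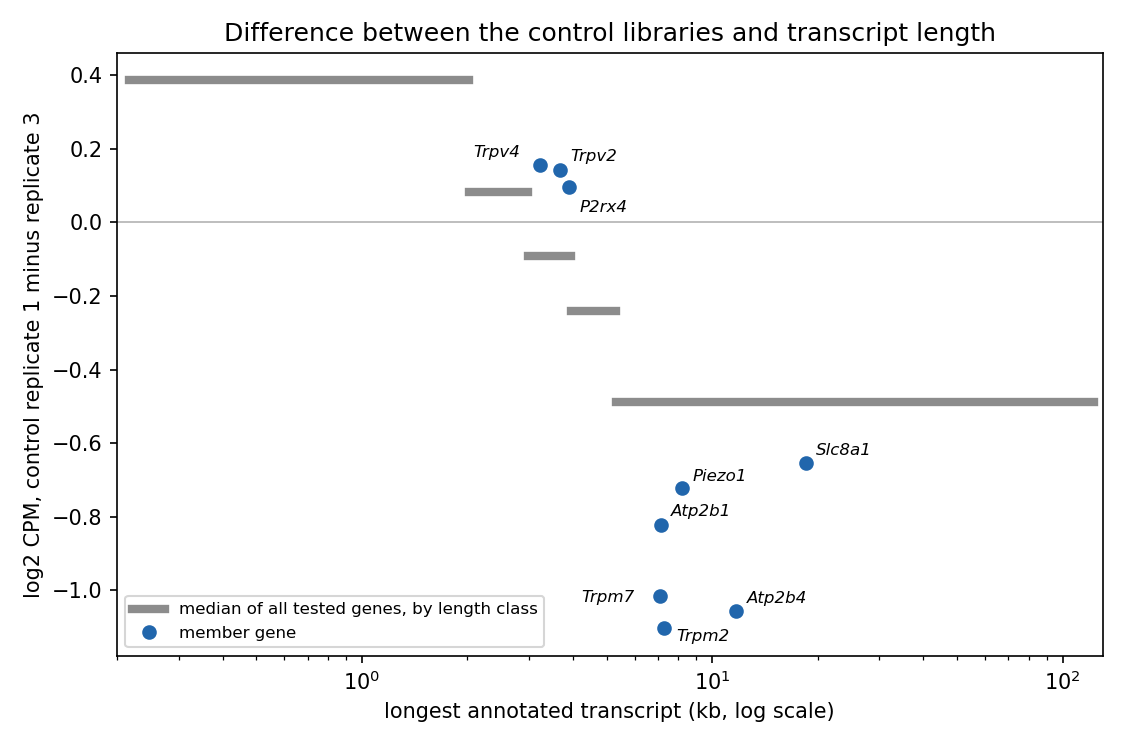
Difference in log2 CPM between control replicates 1 and 3 (y axis) against the longest annotated transcript (x axis, kb, log scale). Grey bars are medians of all tested genes in 5 length classes, which run from 0.39 for the shortest to -0.49 for the longest; the 6 long member genes (points) lie below the last of them.

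A second fit removed the trend on transcript length from each library. In it 4 of the 9 genes passed as higher (Atp2b1, Trpv2, Trpm7 and Piezo1) and 3 as lower (Atp2b4, Slc8a1 and Trpm2), where 37.8% of all tested genes passed, 17.9% as higher and 19.9% as lower. The same 7 genes had groups that did not overlap, against 62.3% of all tested genes. With the trend removed, the long genes still differed between the controls. The log2 ratio of control replicate 1 to control replicate 3 was -0.66 for Trpm2, -0.59 for Trpm7 and -0.42 for Atp2b4. It was -0.39 for Atp2b1, -0.23 for Piezo1 and 0.16 for Slc8a1. The second fit also takes out any real difference between the groups that follows length, and the origin of the trend was not tested. Its values are given beside those of the first fit for the 6 long genes.

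Among the pumps, Atp2b1, the plasma membrane calcium ATPase found in most tissues, had 307, 357 and 367 CPM in verapamil libraries and 160 and 283 CPM in control replicates 1 and 3. All verapamil libraries lay above both controls, but the controls were farther apart than control replicate 3 was from the lowest verapamil library. The log2 fold change was 0.63 (SE 0.242, 95% interval 0.05 to 1.22) and did not pass edgeR's test (adjusted p = 0.105). Dropping control replicate 1 gave 0.28 (adjusted p = 0.0600), and dropping control replicate 3 gave 1.10 (adjusted p = 5.35e-05). In those fits, here and below, a single control leaves no spread between controls. Removing the length trend gave 0.47 (SE 0.119, adjusted p = 0.0208), from 309, 320 and 339 adjusted CPM with verapamil and 201 and 263 in controls. DESeq2's Wald test called it too (log2 0.64, adjusted p = 0.0328), as it did 27.9% of all tested genes. The gene (Entrez 67972) lies on chromosome 10 of GRCm38 at 98914630 to 99026143.

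Atp2b4, a pump of the same family, was expressed far more weakly and fell with verapamil. It had 1.92, 2.84 and 2.12 CPM in verapamil libraries, against 4.54 and 9.44 CPM in control replicates 1 and 3. Every verapamil library was below both controls, although the controls were far apart (log2 ratio -1.06). On the log2 scale the fold change was -1.61 with an SE of 0.348 (edgeR adjusted p = 0.0200). Its 137 counts in the verapamil libraries and 322 in the controls gave a ratio of 0.324, with an exact Clopper-Pearson 95% interval of 0.263 to 0.397 that covers counting error only. Atp2b4 no longer passed once verapamil replicate 1 (adjusted p = 0.0845) or 3 (adjusted p = 0.0797) was left out, and its log2 fold change was -0.99 when control replicate 3 was dropped and -2.04 when control replicate 1 was. Removing the length trend gave -1.87 (SE 0.194, adjusted p = 0.000602). Atp2b4 (Entrez 381290) lies on chromosome 1 at 133702674 to 133801059.

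The genes most like Atp2b4 over the 5 libraries, by the root mean square difference of centred log2 CPM among 6310 well-expressed genes, were Fn1 (0.177), Cald1 (0.185) and Myo1d (0.199). Fn1, which encodes the matrix protein fibronectin, had 349, 464 and 406 CPM with verapamil and 910 and 1316 CPM in controls. Cald1, an actin-binding protein of contractile cells, had 63.1, 72.9 and 66.6 CPM with verapamil and 127 and 210 CPM in controls. Myo1d, an unconventional myosin, had 18.6, 19.1 and 17.8 CPM with verapamil and 38.4 and 62.7 CPM in controls. In all 3, as in Atp2b4, control replicate 1 was the lower control. That order was also the median one in the class with the longest transcripts (log2 ratio -0.49). The likeness was measured with the length trend left in. The summed stromal markers, at 652 to 676 CPM with verapamil and 1641 to 1882 CPM in controls, were lower too. This was not particular to them, as the summed osteoclast markers were 3363 to 3512 CPM with verapamil and 7112 to 7808 CPM in controls. Summed markers of macrophages, dendritic cells, lymphoid cells and neutrophils were also lower, although the neutrophil marker S100a8 overlapped between the groups. The endothelial sum was higher through Kdr alone (mean 30.1 CPM with verapamil and 4.17 CPM in controls). Pecam1 was called lower (mean 0.289 CPM with verapamil and 2.31 CPM in controls), and Cdh5 overlapped and was not tested. The part of any of these cells in the value of Atp2b4 was not tested.

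The pump family held a further change outside the 9 genes. Atp2b3, a pump isoform best known from brain, rose with verapamil to 5.80, 5.58 and 5.27 CPM, against 0.899 and 0.982 CPM in controls. The controls agreed closely and no verapamil library came near them. Its log2 fold change was 2.55, with SE 0.189 (edgeR adjusted p = 0.000676), and it was called in all 14 alternative fits (log2 2.43 to 2.62). As a share of the summed CPM per kb of the 4 pump genes, Atp2b1 made up 96.8%, 97.2% and 97.5% in verapamil libraries and 97.5% and 97.4% in controls. Atp2b3 made up 2.81%, 2.34% and 2.15% with verapamil and 0.841% and 0.520% in controls, and Atp2b4 0.367%, 0.471% and 0.342% with verapamil and 1.68% and 1.97% in controls. Order within the minor isoforms was thus Atp2b3 above Atp2b4 in every verapamil library and the reverse in both controls. Of 6 pump and subunit genes fixed as a list, 5 were tested, of which 1 was higher and 1 lower (median log2 0.05), where 25.4% of all tested genes were called in either direction. Bsg, which encodes the pump subunit basigin and was chosen after its values were seen, had 219, 193 and 208 CPM with verapamil and 344 and 249 CPM in controls (log2 -0.52, SE 0.153, adjusted p = 0.0512).

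Slc8a1, the sodium-calcium exchanger NCX1, had 76.2, 97.8 and 94.7 CPM with verapamil and 70.8 and 111 CPM in control replicates 1 and 3. The verapamil libraries lay between the controls. Its log2 fold change was -0.02 (SE 0.214, 95% interval -0.54 to 0.49, edgeR adjusted p = 0.943), a range that includes changes of either sign. The sign depended on the control used: dropping control replicate 1 gave -0.31 (adjusted p = 0.0917), and dropping control replicate 3 gave 0.34 (adjusted p = 0.0492). After removal of the length trend, Slc8a1 had 79.6, 76.7 and 78.7 adjusted CPM with verapamil and 111 and 99.98 in controls (log2 -0.43, SE 0.0719, adjusted p = 0.00416). Its longest transcript, at 18464 bases, is longer than that of 99.9% of tested genes. Slc8a1 (Entrez 20541) lies on chromosome 17 at 81373105 to 81738387.

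Among 9 exchanger genes 4 were tested and 0 were called in the first edgeR fit at an adjusted p under 0.05 (median log2 0.10). Of all tested genes, 25.4% were called in that fit. At an unadjusted p under 0.05 there was 1, and DESeq2 called 0, against 27.9% of all tested genes. The most abundant of the others was Slc8b1, the mitochondrial exchanger, with 150, 143 and 141 CPM with verapamil and 131 and 111 CPM in controls (log2 0.26, SE 0.109, adjusted p = 0.132). With the length trend removed, edgeR called Slc8a1 lower. It called Slc8b1 (log2 0.28, adjusted p = 0.0297) and Slc24a5 (log2 0.38, adjusted p = 0.0219) higher, and Slc24a3 was not called. In that fit 37.8% of all tested genes passed.

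Trpv2, a cation channel of the vanilloid subfamily that is abundant in macrophages, rose with verapamil. It had 175, 156 and 162 CPM in verapamil libraries and 131 and 118 CPM in control replicates 1 and 3. The groups did not overlap, and here control replicate 1 was the higher control. It differed by 0.40 on the log2 scale (SE 0.105, edgeR adjusted p = 0.0364). Leaving out verapamil replicate 1, 2 or 3 ended the call (adjusted p = 0.156, 0.117 and 0.150), as did a fit with upper quartile factors (log2 0.28, adjusted p = 0.136) and with a stricter filter on low counts (log2 0.36, adjusted p = 0.0550). Upper quartile factors also moved the median of all tested genes to -0.13. Trpv2 (Entrez 22368) lies on chromosome 11 at 62574486 to 62600305.

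The genes closest to Trpv2 in pattern were Lamp1 (root mean square difference 0.0174), Tbc1d22a (0.0184) and Idh1 (0.0224). Lamp1, a major membrane glycoprotein of lysosomes, had 4457, 4029 and 4199 CPM with verapamil and 3441 and 3032 CPM in controls (log2 0.39, SE 0.107, adjusted p = 0.0448). Idh1, the cytosolic isocitrate dehydrogenase, had 555, 506 and 508 CPM with verapamil and 409 and 381 CPM in controls.

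Promoter windows of the 9 genes and of the TRP genes Mcoln1, Mcoln2 and Mcoln3 were searched for the palindrome CACGTG, a motif chosen after the values were seen. Those of other TRP genes, such as Trpm4, were not examined singly. It is an E-box bound by many helix-loop-helix factors, among them the MiT factors that act on lysosomal genes. Among 32851 RefSeq promoter windows of GRCm38.p6, taken as the 250 bases before a start, 6.02% held it. Of the 12 windows of the 9 member genes 1 held it, that of Trpm7. The windows of Trpv2 (chr11:62574236-62574485, plus strand), Trpm7 (chr2:126876262-126876511, minus strand) and the lysosomal channel gene Mcoln1 (chr8:3500269-3500518, plus strand) are shown 5′ to 3′ in the direction of transcription, with the motif in capitals.
Trpv2: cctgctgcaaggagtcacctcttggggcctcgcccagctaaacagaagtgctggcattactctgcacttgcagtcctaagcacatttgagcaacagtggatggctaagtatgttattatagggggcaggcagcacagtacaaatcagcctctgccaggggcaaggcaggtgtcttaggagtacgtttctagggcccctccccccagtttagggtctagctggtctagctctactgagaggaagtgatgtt
Trpm7: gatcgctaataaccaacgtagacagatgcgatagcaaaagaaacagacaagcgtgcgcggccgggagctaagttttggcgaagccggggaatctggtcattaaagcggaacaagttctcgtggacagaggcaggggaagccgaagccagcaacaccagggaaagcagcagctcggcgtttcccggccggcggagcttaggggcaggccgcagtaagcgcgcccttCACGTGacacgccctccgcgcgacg
Mcoln1: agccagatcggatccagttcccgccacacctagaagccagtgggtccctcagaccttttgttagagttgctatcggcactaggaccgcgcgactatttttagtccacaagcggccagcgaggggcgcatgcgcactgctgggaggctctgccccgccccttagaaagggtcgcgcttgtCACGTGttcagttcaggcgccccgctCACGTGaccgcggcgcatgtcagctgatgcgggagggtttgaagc
Mcoln1 held 2 copies, with first bases 71 and 45 bases before the start (positions -71 and -45), Trpm7 held 1 (position -25) and this window of Trpv2 held none. Of the other TRP genes called higher, the window of Mcoln2 held 1 (position -72) and that of Mcoln3, which had the largest rise, held 0. The Mcoln3 window (chr3:146121541-146121790) lies inside the gene (146093277 to 146141808). So does that of Mcoln2 (chr3:146149924-146150173, gene 146149796 to 146195514), and the only window of Atp2b4 (chr1:133753748-133753997, gene 133702674 to 133801059). The bases before the outer starts of these genes were not searched. A match describes the letters and not a bound site.

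Trpv4, a channel opened by cell swelling and heat that carries calcium in late osteoclast differentiation in mice, was almost the same in all libraries. It had 24.3, 25.6 and 23.6 CPM with verapamil and 26.5 and 23.8 CPM in controls. The groups overlapped, and the log2 fold change of -0.04 (edgeR adjusted p = 0.817, SE 0.110) had a 95% interval of -0.30 to 0.23. Its sign turned without control replicate 1 (log2 0.05). Trpv4 (Entrez 63873) lies on chromosome 5 at 114622152 to 114658435.

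Trpm7, a channel fused to a protein kinase that carries magnesium as well as calcium, had 111, 130 and 123 CPM with verapamil and 47.2 and 95.5 CPM in control replicates 1 and 3. All verapamil libraries were above both controls, and the controls were farther apart than any pair of verapamil libraries. A log2 fold change of 0.77 (SE 0.285, 95% interval 0.08 to 1.46) did not pass edgeR's test (adjusted p = 0.0992), and it passed DESeq2's Wald test (log2 0.78, adjusted p = 0.0213). Dropping control replicate 1 gave 0.35 (adjusted p = 0.0235), and dropping control replicate 3 gave 1.36 (adjusted p = 1.67e-05). Removing the length trend gave 0.62 (SE 0.159, adjusted p = 0.0226). Trpm7 (Entrez 58800) lies on chromosome 2 at 126791558 to 126876261.

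Trpm2, a channel opened by ADP-ribose under oxidative stress, was the weakest TRP channel of the 9 genes, with 103 counts in all verapamil libraries and 150 in all controls. It had 1.57, 2.07 and 1.53 CPM with verapamil and 2.07 and 4.44 CPM in control replicates 1 and 3. Control replicate 1 and verapamil replicate 2 were level, so in these values the difference rested largely on control replicate 3. The log2 fold change of -0.92 (SE 0.361, 95% interval -1.79 to -0.05) did not pass (edgeR adjusted p = 0.112). Dropping control replicate 1 gave -1.36 (adjusted p = 0.00229), and dropping control replicate 3 gave -0.26 (adjusted p = 0.450). Removing the length trend gave -1.08 (SE 0.258, adjusted p = 0.0174). The adjusted CPM were 1.58, 1.85 and 1.41 with verapamil and 2.61 and 4.13 in control replicates 1 and 3. When control replicate 1 was also left out, the log2 fold change was -1.35, and when control replicate 3 was, it was -0.69. The size of the difference thus still depended on the control used. Trpm2 (Entrez 28240) lies on chromosome 10 at 77907722 to 77969909.

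**Figure D3:**
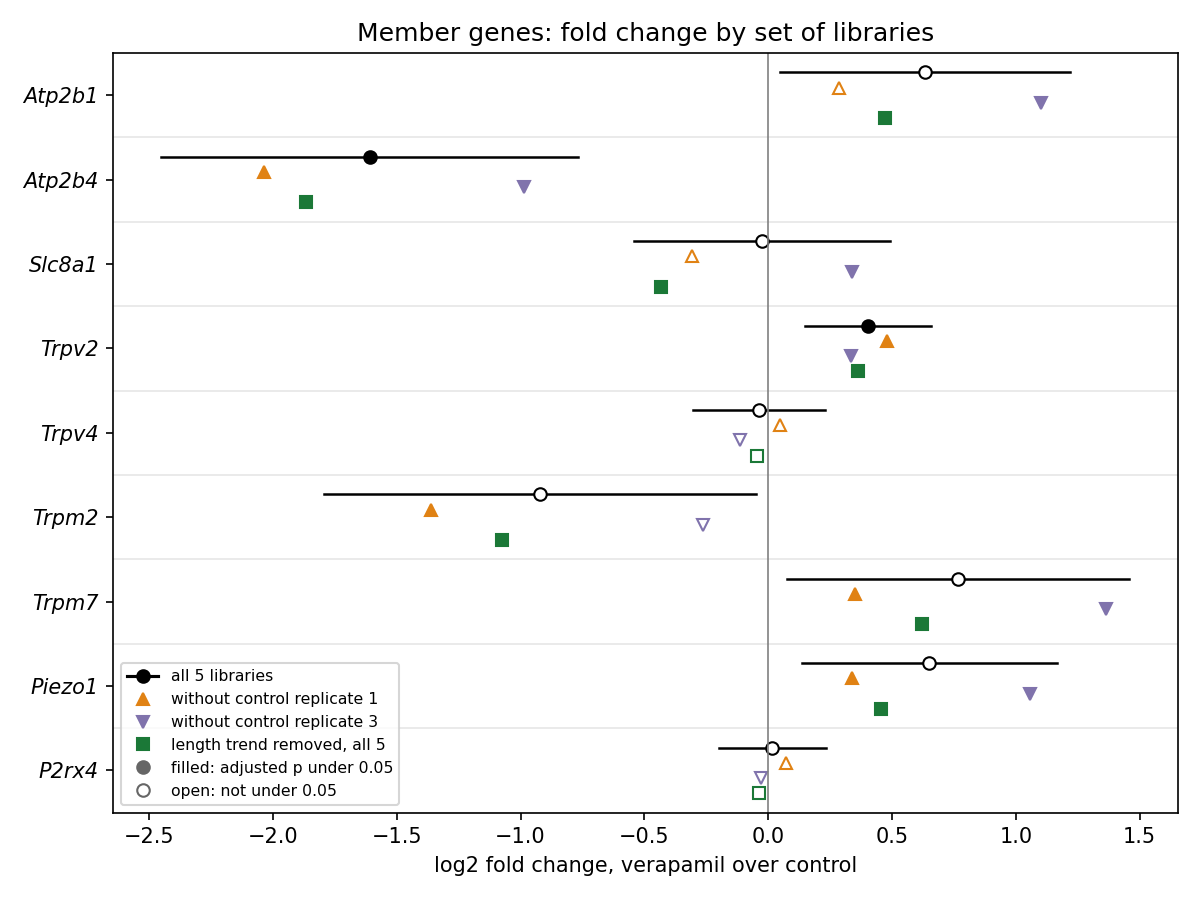
log2 fold change of the 9 genes, verapamil over control (x axis), with all 5 libraries and its 95% interval (circles and lines), without either control and with the length trend removed. Filled symbols mark an adjusted p under 0.05. Trpv2 and Atp2b4 are filled with all 5 libraries, and for Atp2b1, Trpm7 and Piezo1 the values without control replicate 1 (0.28 to 0.35) and without control replicate 3 (1.06 to 1.36) lie on either side of the value from all 5 libraries.

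Across the TRP family, 28 genes were listed, 20 were analysed here and 11 were tested, of which 4 were higher and 1 lower (median log2 0.42), where 9.99% of all tested genes were higher and 15.4% lower. The TRP genes that rose beside Trpv2 were the 3 mucolipins, channels that release calcium from endosomes and lysosomes. Mcoln3 rose to 66.4, 64.0 and 64.0 CPM with verapamil, against 22.0 and 22.6 CPM in controls (log2 1.54, SE 0.102, edgeR adjusted p = 0.000543). Mcoln1 rose to 90.7, 86.6 and 82.9 CPM with verapamil, against 55.5 and 50.9 CPM in controls (log2 0.71, SE 0.102, adjusted p = 0.00511). Mcoln2 had 98.0, 97.5 and 94.8 CPM with verapamil and 73.1 and 71.2 CPM in controls (log2 0.42, SE 0.0907, adjusted p = 0.0194). In none of the 3 did a verapamil library reach down to a control, and the control libraries differed little. The calls of Mcoln1 and Mcoln3 stood in all 14 alternative fits, while that of Mcoln2 ended when verapamil replicate 1, 2 or 3 was left out (adjusted p = 0.106, 0.116 and 0.108) and with upper quartile factors (log2 0.30, adjusted p = 0.0658). Trpc6, a channel opened by diacylglycerol, was called lower from very few reads: it had 2 counts in all verapamil libraries and 27 in all controls, a ratio of 0.0564 with an exact 95% counting interval of 0.00650 to 0.225 (edgeR adjusted p = 0.00982). Trpc6 passed the filter on low counts only through the controls, so its call is not independent of that filter, and it was tested in 11 of the 14 alternative fits.

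**Figure D4:**
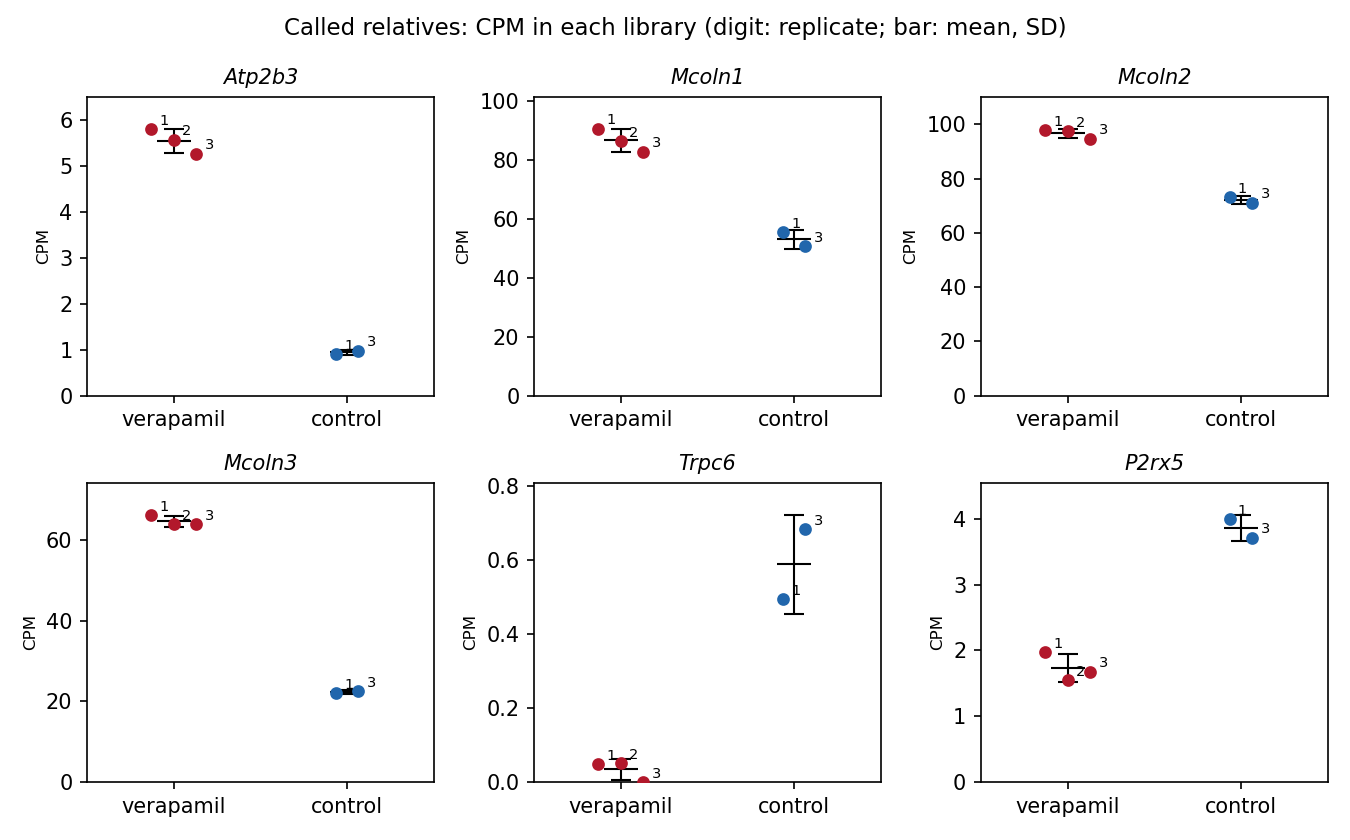
CPM (y axes, from 0) of the 6 genes of the related families that passed the test outside the 9, in verapamil and control libraries, with mean and SD. Atp2b3 and the 3 mucolipin genes lie higher in all 3 verapamil libraries than in both controls, Trpc6 and P2rx5 lower.

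Piezo1, the channel that opens when the membrane is stretched, had 211, 236 and 235 CPM with verapamil and 109 and 180 CPM in control replicates 1 and 3. All verapamil libraries were above both controls. The log2 fold change of 0.65 (SE 0.213, 95% interval 0.14 to 1.17) did not pass edgeR's test (adjusted p = 0.0706) and passed DESeq2's Wald test (log2 0.66, adjusted p = 0.0145). Dropping control replicate 1 gave 0.34 (adjusted p = 0.0150), and dropping control replicate 3 gave 1.06 (adjusted p = 2.66e-05). Once length was accounted for, the libraries had 213, 208 and 213 adjusted CPM with verapamil and 142 and 166 in controls (log2 0.45, SE 0.0825, adjusted p = 0.00596). Piezo1 (Entrez 234839) lies on chromosome 8 at 122481698 to 122551329, and Ctu2, on the other strand, overlaps 24.6% of its exon bases. The labels do not give strand use in the counting, so reads of the pair cannot be told apart there. Ctu2 had 12.9, 12.6 and 14.1 CPM with verapamil and 32.5 and 14.3 CPM in control replicates 1 and 3, far below Piezo1 and with the controls in the opposite order.

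Of 5 mechanically gated channel genes 3 were tested and 0 were called in the first edgeR fit (median log2 0.28), against 25.4% of all tested genes. At an unadjusted p under 0.05 there was 1, and DESeq2 called 1, in both cases Piezo1. DESeq2 called 27.9% of all tested genes. Tmem63b, a stretch-gated channel, had 32.5, 33.6 and 30.2 CPM with verapamil and 23.7 and 29.2 CPM in controls (log2 0.28, SE 0.133, adjusted p = 0.172).

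P2rx4, a channel opened by extracellular ATP that also resides in lysosomes, had 344, 340 and 340 CPM with verapamil and 348 and 326 CPM in controls. The groups overlapped and the verapamil libraries were nearly identical. The log2 fold change was 0.02 (SE 0.0887, 95% interval -0.20 to 0.23, edgeR adjusted p = 0.8997). With changes of this size the sign depended on the fit, as it was -0.10 with upper quartile factors and -0.03 with a stricter filter on low counts. P2rx4 (Entrez 18438) lies on chromosome 5 at 122707518 to 122729739, beside P2rx7 at 122643927 to 122692336. P2rx7, a second ATP-gated channel of macrophages and osteoclasts that was chosen for its position, had 79.5, 90.5 and 81.9 CPM with verapamil and 71.8 and 108 CPM in controls (log2 -0.10, SE 0.182, adjusted p = 0.702).

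Of 7 P2X receptor genes 4 were tested, with 0 higher and 1 lower by edgeR (median log2 -0.54), where 25.4% of all tested genes were called in either direction. That median lies midway between P2rx7 (log2 -0.10) and P2rx6 (log2 -0.97), neither of them called. P2rx6 had 24 counts in all verapamil libraries and 36 in all controls. It passed the filter on low counts only through the controls, so its value and the median are not independent of that filter. DESeq2 and an unadjusted p under 0.05 also gave 0 higher. P2rx5, the member that fell, had 1.97, 1.55 and 1.68 CPM with verapamil and 4.0 and 3.71 CPM in controls (log2 -1.15, SE 0.195, edgeR adjusted p = 0.00901), a call that ended when verapamil replicate 3 was left out (adjusted p = 0.0519).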

How the data were processed

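RNA-seq libraries from verapamil-treated (3) and control (2) osteoclasts were analysed. The authors deposited estimated counts per gene. The values carry up to 2 decimals and their column totals differ, so they look unscaled. The submitters' processing notes list the builds GRCm38 and mm10. What aligner, counting program and annotation were used is not given in the sources used here. A SMARTER mRNA kit is named in the labels' protocols. Each count was rounded. edgeR 4.0.16 (R 4.3.3) then scaled by TMM, filtered at its defaults (at least 10 counts in enough libraries and 15 in all) and ran a quasi-likelihood fit on group alone, with 3 residual and 3.28 prior degrees of freedom. The design took every verapamil and control library with counts per gene, which gave 2 of the 3 labelled controls. The SE of a fold change was computed as its size over the square root of F, so it restates the test, and intervals use the total degrees of freedom.

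Transcript lengths (longest transcript in GENCODE M21) were found for 98.2% of tested genes. The length trend was a loess curve (span 0.5) of log2 CPM, less the gene's mean, on log2 length in each library, entered as an offset. Alternatives were other scalings and filters, DESeq2 1.42.0, each library left out, a replicate block and, added after seeing the data, the length trend together with 1 control left out. The fits were tested on simulated data. Members and lists were chosen with earlier results of these data known. The genes named were all 9 members, every called gene of the 6 lists, the most abundant gene of a list with no other call, and the 3 genes nearest to the member with the smallest p in each direction. Other names were chosen as stated beside them. The result of 1 list is not reported here. Gene positions and promoters come from RefSeq (GRCm38.p6).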

Additional observations from a re-analysis of the deposited data

How the results depend on the processing

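Of the 9 genes, the first edgeR fit, on all 5 libraries, called 1 higher and 1 lower. The counts were 0 higher with upper quartile factors or the stricter filter, 4 higher with DESeq2's Wald test (27.9% of all genes called) or with the length trend removed, and 3 lower with the length trend removed. Adding the length trend to the loss of control replicate 1 or 3 also gave 4 higher and 3 lower, with 5568 and 7493 calls over all genes. Leaving out single libraries gave 0 to 5 higher, 0 to 2 lower and 1460 to 7808 calls over all genes (3200 with all 5), the highest without control replicate 3 and the lowest without verapamil replicate 3. Those fits have fewer residual degrees of freedom or a single control. The 3 lower genes with the length trend removed were not the same in each fit. They were Atp2b4, Slc8a1 and Trpm2 with all 5 libraries and without control replicate 1. Without control replicate 3, P2rx4 (log2 -0.13) was called lower in place of Trpm2 (log2 -0.69), which was not called.

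The signs of P2rx4, Trpv4 and Slc8a1, none of them called in the first fit, were not the same in every alternative. With the length trend removed, edgeR called Slc8a1 lower (log2 -0.43, adjusted p = 0.00416). Slc8a1 stayed lower when control replicate 1 (log2 -0.35) or 3 (log2 -0.50) was also left out. P2rx4 was -0.10 with upper quartile factors, -0.027 with the stricter filter, -0.036 with the length trend removed and -0.13 when control replicate 3 was also left out. Leaving out single libraries gave -0.029 to 0.070 for P2rx4, -0.11 to 0.046 for Trpv4 and -0.31 to 0.34 for Slc8a1. Trpv4 was 0.046 with the length trend removed and control replicate 1 left out. The cause was not tested. The other 6 genes kept their direction in every alternative in which they were tested, and Trpm2 was not tested under the stricter filter.

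The replicate block gave 3 higher (Atp2b1, Piezo1 and Trpm7) and 2 lower (Atp2b4 and Trpm2), with 26.3% of all genes called. Trpv2 (adjusted p = 0.0884) and Mcoln2 (adjusted p = 0.107) did not pass under it. Verapamil replicate 2 has no control partner, so the block fit compares the groups within 2 pairs only (replicates 1 and 3). It also leaves fewer residual degrees of freedom than the first fit. The labels do not say what a shared number marks. Deviations from the group means of same-numbered libraries correlated at 0.289 (replicate 1) and 0.0224 (replicate 3), over 2 pairs. Low counts limit Atp2b4, Trpm2, Trpc6, P2rx5 and P2rx6, and Atp2b3 in the controls. Atp2b3 had 333 counts with verapamil and 43 in controls, a ratio of 5.90 (exact 95% counting interval 4.28 to 8.30). P2rx5 had 104 and 176, a ratio of 0.450 (0.350 to 0.577).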
